A study of Mus musculus with 19 samples.

Results

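Gene expression in the left prelimbic cortex was compared between mice that had received both MK-801 and magnetic stimulation (SCZ+c-MSST, 4 libraries) and mice that had received saline and no stimulation (Control, 6 libraries). These 10 of the 19 libraries of the study were chosen by the group named in their titles. All mice were given daily intraperitoneal injections for 2 weeks, of MK-801 at 0.2 mg/kg in the SCZ+c-MSST group and of saline in the Control group. c-MSST combines γ-Fe2O3 nanoparticles (ferumoxytol), placed once in the left prelimbic cortex by stereotactic surgery, with a pulsed magnetic field around the freely moving animal. Tissue was taken on day 3 after surgery, and total RNA was extracted with TRIzol, made into stranded libraries and sequenced on a HiSeq 2500. The remaining groups, SCZ (MK-801 alone, 4 libraries) and Control+c-MSST (saline with stimulation, 5 libraries), entered the same fit and are given beside some results. The comparison asks what still differs from plain controls after drug and stimulation together. The groups differ in drug, nanoparticles and field all at once, so their effects cannot be told apart here. Nor can any effect of surgery, since the labels do not say whether Control mice had an operation. The labels also give no strain, sex, age or batch. The design text counts as many mice as libraries in each group, but whether any library holds pooled tissue is not stated, so the p-values measure the spread between these libraries.

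MK-801 blocks the channel of the NMDA receptor, a glutamate receptor that admits calcium into neurons, and repeated dosing in mice is used to model features of schizophrenia. The prelimbic cortex is a part of the medial prefrontal cortex in which excitatory pyramidal cells are held in check by GABA-releasing interneurons. Neuronal firing switches on immediate early genes within minutes, many of them through the factor CREB, which binds cAMP response elements (CRE) in promoters, while corticosteroid hormones switch on a separate set through the glucocorticoid receptor. Iron oxide particles bring iron into tissue, where ferritin stores it, and brain surgery is known to engage microglia, astrocytes and vessels.

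Total counts ran from 66828543 to 75090222 in SCZ+c-MSST libraries and from 50140626 to 66818266 in Control libraries. Levels are given as normalized CPM, the count of a gene scaled to a common library total, and a count of 0 allows up to 0.0400 to 0.0449 CPM in SCZ+c-MSST and 0.0449 to 0.0598 CPM in Control, for counting error only. Any pair of the 10 libraries correlated at 0.961 to 0.979 over genes in log2 CPM. The tissue carried the defining markers of cortex in every library: Slc17a7, the vesicular glutamate transporter of cortical pyramidal cells, stood at 1122 ± 130 CPM in SCZ+c-MSST (SD, n = 4) and 1049 ± 106 CPM in Control (SD, n = 6). Gad1, which makes GABA, stood at 336 ± 34.0 CPM in SCZ+c-MSST and 318 ± 48.6 CPM in Control. Some libraries stood apart. Control replicates 2 and 3 held 1607 and 150 CPM of Ttr, the transthyretin gene of the choroid plexus, against at most 0.850 CPM in SCZ+c-MSST and 6.98 CPM in the other Control libraries. The dopamine receptor gene Drd2, strong in the striatum, stood at 41.2 to 101 CPM in SCZ+c-MSST and ranged from 2.69 to 68.5 CPM in Control. The libraries also differed in which adult beta-globin genes they carried. Hbb-b1, a gene of one of the mouse beta-globin haplotypes, stood at 0.194 and 0.180 CPM in SCZ+c-MSST replicates 2 and 3, at 0.192 and 0.191 CPM in Control replicates 4 and 5, and at 49.2 CPM or more in the other libraries of these groups. The part of these differences in the results below was not tested beyond the values given beside them. In bulk tissue, fewer cells of a type and less RNA per cell cannot be told apart.

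No gene passed an adjusted p of 0.05 in SCZ+c-MSST against Control. Of 16417 genes tested with edgeR, 0 were called (0% higher, 0% lower), and the smallest adjusted p was 0.0955. At an unadjusted p under 0.05 there were 1655 genes (10.1%), of which 718 were higher (4.37%) and 937 lower (5.71%) in SCZ+c-MSST. DESeq2 called 91 genes, 41 higher and 50 lower. When edgeR was fitted to these 2 groups alone it called 0 genes, and the smallest adjusted p was 0.425. That fit had 1146 genes at an unadjusted p under 0.05 (7.14%). With SCZ+c-MSST replicate 5 left out, edgeR called 1 gene (Mtrr), and with Control replicate 1 left out it called 1 other, Wnt1, a secreted signalling protein. In 128 genes (0.78%) every SCZ+c-MSST library lay above every Control library, and in 144 genes (0.877%) every one lay below. The same fit gave 0 calls and 2219 genes at an unadjusted p under 0.05 for SCZ against Control (13.5%), and 0 calls and 1241 such genes for SCZ+c-MSST against SCZ (7.56%). Control+c-MSST against Control, which uses the same Control libraries, gave 54 calls (0.329%) and 2718 such genes (16.6%).

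The genes nearest to the threshold in the higher direction were of mixed function. Tmem94 (chr11:115765433-115799366, plus strand, mm10 with GENCODE M21 genes), which encodes a membrane protein of the P-type ATPase kind, stood at 140, 127, 124 and 125 CPM in SCZ+c-MSST, against 98.4, 107 and 112 CPM as the lowest, median and highest of Control. Every SCZ+c-MSST library was thus above every Control library, and the log2 fold change was 0.28 (SE 0.05, edgeR adjusted p = 0.0955). The SCZ mean was 124 CPM and the Control+c-MSST mean 127 CPM, so all 3 groups other than Control had means above 120 CPM. Coa6 (chr8:126422515-126425433, plus strand), a mitochondrial factor for the assembly of cytochrome c oxidase, had the largest fold among the 8 higher genes. Its levels were 4.95, 5.40, 6.68 and 5.82 CPM in SCZ+c-MSST and 2.92, 3.88 and 4.00 CPM (lowest, median, highest) in Control, a log2 fold change of 0.66 (SE 0.12, edgeR adjusted p = 0.0955). Slc6a6 (chr6:91684053-91759066, plus strand), the taurine transporter, stood at 264, 287, 258 and 269 CPM in SCZ+c-MSST, against 218, 231 and 241 CPM in Control. These groups did not overlap either, with a log2 fold change of 0.23 (SE 0.04). Sp2, a transcription factor of the Sp family, had a log2 fold change of 0.31 (SE 0.06), and Ptcd1, a mitochondrial RNA-binding protein, one of 0.27 (SE 0.05). Sez6, a neuronal surface protein that shapes dendrites and excitatory synapses, averaged 412 ± 32.6 CPM in SCZ+c-MSST and 305 ± 46.3 CPM in Control, and its SCZ mean was 408 CPM. Dmwd (log2 fold change 0.16, SE 0.03) and the secreted brain protein C1qtnf4 (0.38, SE 0.08) closed the group. C1qtnf4 was the only one of the 16 genes described in this paragraph and the next whose groups overlapped. The 16 were picked by p in this same comparison, which favours separated groups, so the separation is no further evidence.

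Mtrr had the smallest p of all genes. It encodes methionine synthase reductase, which keeps the cobalamin-dependent methionine synthase active. It stood at 8.98, 7.06, 8.60 and 11.2 CPM in SCZ+c-MSST, all below the lowest, median and highest Control values of 12.5, 13.6 and 16.3 CPM. The log2 fold change was -0.63 (SE 0.11, edgeR adjusted p = 0.0955), and the means of SCZ and Control+c-MSST were 11.5 and 12.3 CPM. Dnase1l2 (chr17:24440081-24443105, minus strand), a member of the DNase I family, had 2.28, 1.10, 1.93 and 1.39 CPM in SCZ+c-MSST, against 2.81, 4.30 and 4.63 CPM in Control. This was the largest fold of the 16, at -1.26 on the log2 scale (SE 0.23), and the means of SCZ and Control+c-MSST, 3.33 and 4.22 CPM, were nearer to the Control mean of 4.00 CPM. Ttf1, the termination factor of RNA polymerase I, stood at 12.6 ± 1.29 CPM in SCZ+c-MSST and 16.5 ± 0.745 CPM in Control, a log2 fold change of -0.39 (SE 0.07). Zinc finger genes were among the 8, with Zfp874b at 13.3 ± 1.17 CPM in SCZ+c-MSST and 18.5 ± 1.56 CPM in Control (-0.48, SE 0.09), and Zfp658 at 9.29 ± 1.13 CPM in SCZ+c-MSST and 12.2 ± 0.665 CPM in Control (-0.39, SE 0.08). Mtrr and Zfp874b both lie on chromosome 13 of mm10, at 68560780 to 68582149 and at 67471513 to 67484258. The last 3 were Msantd2 (-0.57, SE 0.12), Dipk2b (-1.08, SE 0.22) and Mettl7a1 (-0.43, SE 0.09). In all of the 16 but Dnase1l2, Zfp658 and Mettl7a1, the means of both SCZ and Control+c-MSST lay between those of SCZ+c-MSST and Control.

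**Figure D1:**
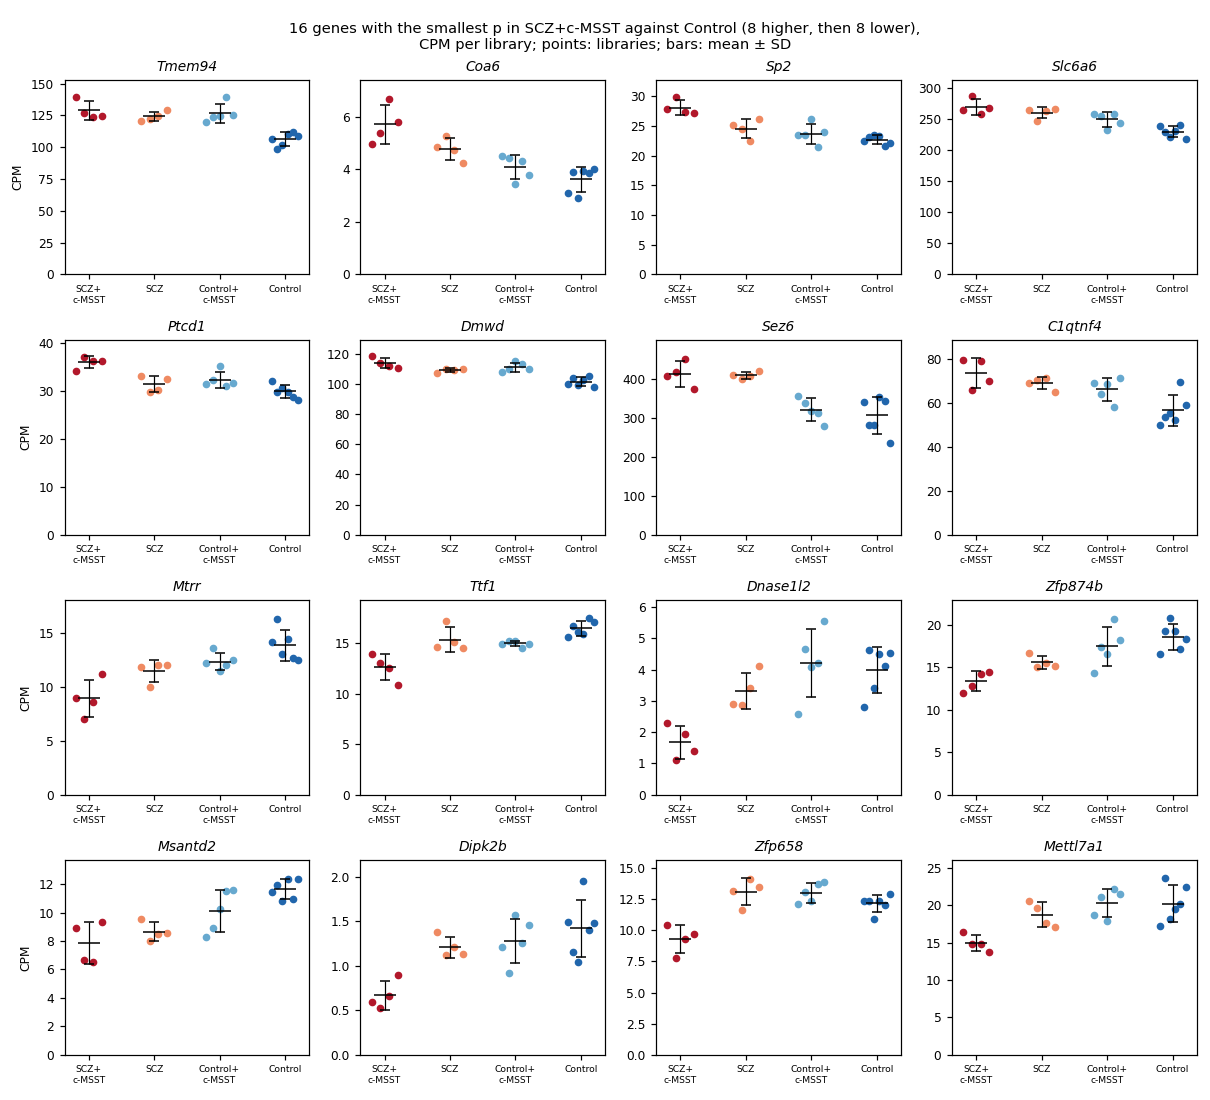
Level in CPM (vertical axes, from 0) of the 8 higher and 8 lower genes with the smallest p in SCZ+c-MSST against Control, in all 4 groups; points are libraries, bars mean ± SD. In each panel except that of C1qtnf4 the 4 SCZ+c-MSST points lie wholly above or below the 6 Control points, as for Mtrr (7.06 to 11.2 CPM against 12.5 to 16.3 CPM). Picking genes by p in this same comparison favours such separation.

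Immediate early genes lay on both sides of Control in SCZ+c-MSST. Of 28 tested, 16 were higher and 12 lower in mean in SCZ+c-MSST against Control, beside 48% and 52% of all genes, 0 passed, and the median log2 fold change was 0.05 beside -0.01 over all genes. At an unadjusted p under 0.05, 6 were higher (Dusp1, Btg2, Ccn1, Sik1, Klf4 and Jund) and 2 lower (Arc and Nr4a3), in a comparison where 4.37% and 5.71% of all genes were. For SCZ against Control, which uses the same Control libraries, 25 of the 28 were lower in mean, against 49.9% of all genes, and the median was -0.49. For SCZ+c-MSST against SCZ it was 0.44. No member of the list had groups that did not overlap between SCZ+c-MSST and Control, where 1.66% of all genes did not.

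The promoters of 4 of these genes are shown because CREB and related factors act through such sites and because these genes took different sides: in mean, Dusp1 was higher, Npas4 lower, and Fos and Nr4a1 near Control. They are the 250 bases before each start in the RefSeq annotation of GRCm38.p6, 5′ to 3′ on the gene's strand, with the CRE half-site TGACG on either strand in capitals (CGTCA where it lies on the other strand); the full element TGACGTCA contains it and is counted under both. Dusp1 lies at chr17:26508473-26508722 (minus strand), Npas4 at chr19:4989972-4990221 (minus), Nr4a1 at chr15:101266596-101266845 (plus) and Fos at chr12:85473640-85473889 (plus).
Dusp1: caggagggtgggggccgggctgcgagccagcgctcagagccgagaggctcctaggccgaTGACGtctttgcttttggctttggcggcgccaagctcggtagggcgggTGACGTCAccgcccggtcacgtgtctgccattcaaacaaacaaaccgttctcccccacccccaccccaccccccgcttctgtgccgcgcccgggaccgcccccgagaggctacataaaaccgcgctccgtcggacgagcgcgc
Npas4: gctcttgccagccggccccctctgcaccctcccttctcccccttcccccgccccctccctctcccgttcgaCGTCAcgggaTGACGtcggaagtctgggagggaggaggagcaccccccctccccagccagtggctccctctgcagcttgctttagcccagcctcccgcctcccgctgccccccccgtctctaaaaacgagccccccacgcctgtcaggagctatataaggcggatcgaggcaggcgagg
Nr4a1: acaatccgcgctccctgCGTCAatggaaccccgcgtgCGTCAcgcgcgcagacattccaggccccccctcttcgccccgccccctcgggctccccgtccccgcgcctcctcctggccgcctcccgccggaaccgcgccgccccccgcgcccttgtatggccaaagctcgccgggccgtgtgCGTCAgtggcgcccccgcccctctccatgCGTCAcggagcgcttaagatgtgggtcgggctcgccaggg
Fos: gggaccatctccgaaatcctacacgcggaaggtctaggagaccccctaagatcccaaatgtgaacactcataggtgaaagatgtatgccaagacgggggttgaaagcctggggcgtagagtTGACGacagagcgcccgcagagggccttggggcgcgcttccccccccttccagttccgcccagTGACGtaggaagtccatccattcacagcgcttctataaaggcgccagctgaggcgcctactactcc
The half-site occurred 3 times in the Dusp1 window, 2 times in that of Npas4, 4 times in that of Nr4a1 and 2 times in that of Fos, and only the Dusp1 window of these 4 held the full element. Of the 22 listed genes with a promoter in the table, 16 held a half-site (72.7%), against 5347 of 27025 genes (19.8%). A match is a description of the letters and not a measured site. Genes that were higher, lower or level all held it.

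Dusp1, a phosphatase that switches off MAP kinases, stood at 32.7, 36.9, 41.9 and 53.1 CPM in SCZ+c-MSST, against 20.6, 25.5 and 36.8 CPM (lowest, median, highest) in Control. All but 1 SCZ+c-MSST library were above every Control library, and the log2 fold change was 0.64 (SE 0.19, edgeR adjusted p = 0.341). In SCZ its mean was 15.9 ± 1.82 CPM (SD, n = 4), the lowest of the 4 groups. Btg2, an antiproliferative gene induced by activity and stress, had 25.3, 32.4, 41.7 and 39.2 CPM in SCZ+c-MSST, against 13.8, 21.1 and 28.2 CPM in Control (log2 fold change 0.69, SE 0.25, edgeR adjusted p = 0.392). Ccn1, a secreted matrix protein, had 6.84, 12.1, 15.9 and 13.0 CPM in SCZ+c-MSST, against 3.26, 6.04 and 10.7 CPM in Control (0.87, SE 0.34). The groups overlapped in both genes. Klf4, a transcription factor also strong in vessels, averaged 15.9 ± 2.11 CPM in SCZ+c-MSST and 9.44 ± 5.10 CPM in Control (0.76, SE 0.32). Sik1, a kinase induced by cAMP, averaged 49.5 ± 6.42 CPM in SCZ+c-MSST and 35.2 ± 8.95 CPM in Control (0.49, SE 0.20), and Jund 75.2 ± 1.61 CPM in SCZ+c-MSST and 69.1 ± 4.00 CPM in Control. In Dusp1, Btg2, Ccn1, Klf4 and Sik1 the SCZ mean was the lowest of the 4 groups, whereas Jund stood at 76.5 CPM in SCZ.

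On the other side of Control, the largest fold of the list was in Arc. This gene, whose product helps remove AMPA receptors from synapses, stood at 80.5, 91.0, 96.5 and 91.1 CPM in SCZ+c-MSST, against 92.4, 164 and 229 CPM in Control. Only the highest SCZ+c-MSST library reached above the lowest Control library, and the log2 fold change was -0.82 (SE 0.26, edgeR adjusted p = 0.362). Its mean was 71.5 ± 9.71 CPM in SCZ and 150 ± 46.1 CPM in Control+c-MSST, so both MK-801 groups were low. Nr4a3, an orphan nuclear receptor, averaged 23.2 ± 5.22 CPM in SCZ+c-MSST and 40.5 ± 21.5 CPM in Control, a log2 fold change of -0.81 (SE 0.33). Npas4, a transcription factor that adjusts inhibitory synapses to activity, had 10.9, 6.95, 10.5 and 6.42 CPM in SCZ+c-MSST, against 9.79, 13.2 and 26.4 CPM in Control (-0.79, SE 0.40, edgeR adjusted p = 0.534). In Npas4 the SCZ mean was instead above that of Control, at 23.1 ± 10.7 CPM against 14.98 ± 5.88 CPM. Fos, the archetype of the class, had 15.8, 12.5, 25.5 and 23.8 CPM in SCZ+c-MSST, against 9.11, 20.5 and 28.0 CPM in Control. Nr4a1 averaged 66.4 ± 11.1 CPM in SCZ+c-MSST and 64.1 ± 15.8 CPM in Control, Junb 41.5 ± 9.42 CPM in SCZ+c-MSST and 35.3 ± 7.57 CPM in Control, and Egr1 197 ± 24.4 CPM in SCZ+c-MSST and 239 ± 57.9 CPM in Control. Homer1, a postsynaptic scaffold with an activity-induced short form, was the most abundant of the list, at 277 ± 25.5 CPM in SCZ+c-MSST and 256 ± 40.2 CPM in Control.

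**Figure D2:**
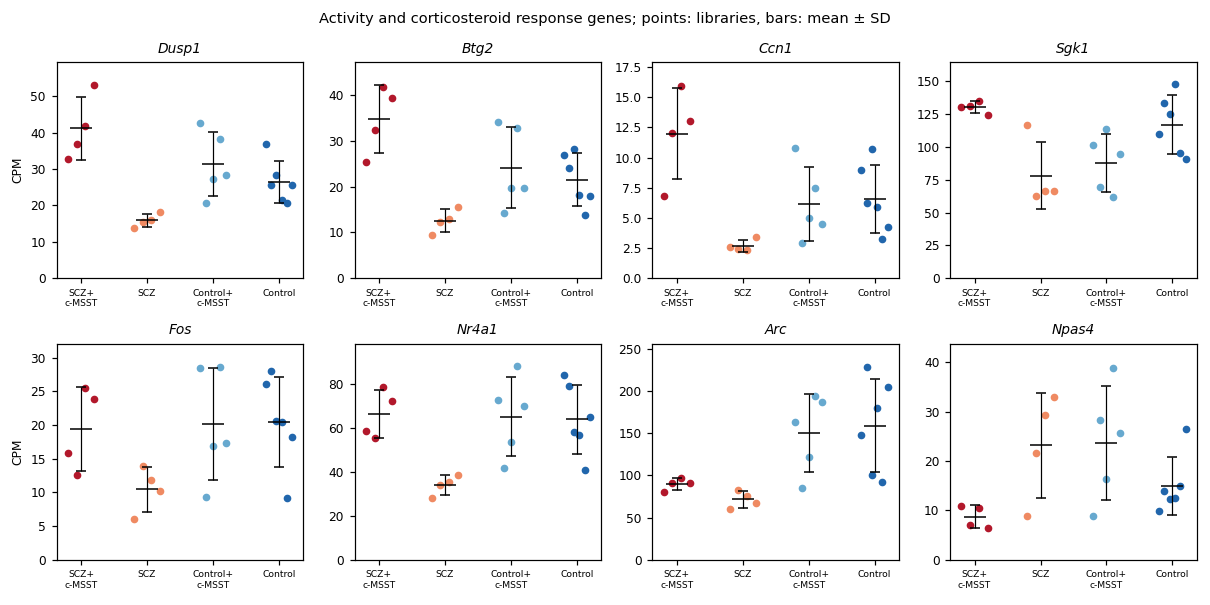
Level in CPM (vertical axes, from 0) of 8 activity and corticosteroid response genes in the 4 groups; points are libraries, bars mean ± SD. Dusp1, Btg2 and Ccn1 have their highest mean in SCZ+c-MSST and their lowest in SCZ (15.9 CPM for Dusp1), while Arc is low in SCZ+c-MSST and SCZ (89.8 and 71.5 CPM against 159 CPM in Control).

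Corticosteroid response genes stood on both sides of Control. Of 16 tested, 8 were higher and 8 lower in mean, none at an unadjusted p under 0.05 in the higher direction and 2 in the lower (4.37% and 5.71% of all genes), with a median log2 fold change of 0.01. In SCZ against Control the median of the same genes was -0.41, over the same Control libraries. Sult1a1, a sulfotransferase, had 11.04, 9.20, 10.5 and 9.08 CPM in SCZ+c-MSST, against 11.8, 13.7 and 17.3 CPM in Control (-0.49, SE 0.14, edgeR adjusted p = 0.328). Plin4, a lipid droplet coat protein, had 16.9, 13.4, 14.4 and 11.4 CPM in SCZ+c-MSST, against 17.1, 21.2 and 23.9 CPM in Control (-0.58, SE 0.20). Neither gene's groups overlapped, where 0.877% of all genes lay wholly below Control, and both were also low in mean in SCZ, at 10.7 and 13.6 CPM. SCZ replicate 1 stood apart from this, with 1658 counts of Plin4 against 663, 867 and 830 in SCZ replicates 2, 3 and 5. The mean of the list's centred log2 CPM was 0.10 in SCZ replicate 1 and -0.28, -0.44 and -0.35 in those replicates. Sgk1, a kinase that is a classic glucocorticoid target, averaged 130 ± 4.55 CPM in SCZ+c-MSST and 117 ± 22.3 CPM in Control, beside 78.0 CPM in SCZ. Klf9, another such target, averaged 277 ± 12.8 CPM in SCZ+c-MSST and 266 ± 17.4 CPM in Control, and Zbtb16 145 ± 14.7 CPM in SCZ+c-MSST and 199 ± 72.0 CPM in Control.

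**Figure D3:**
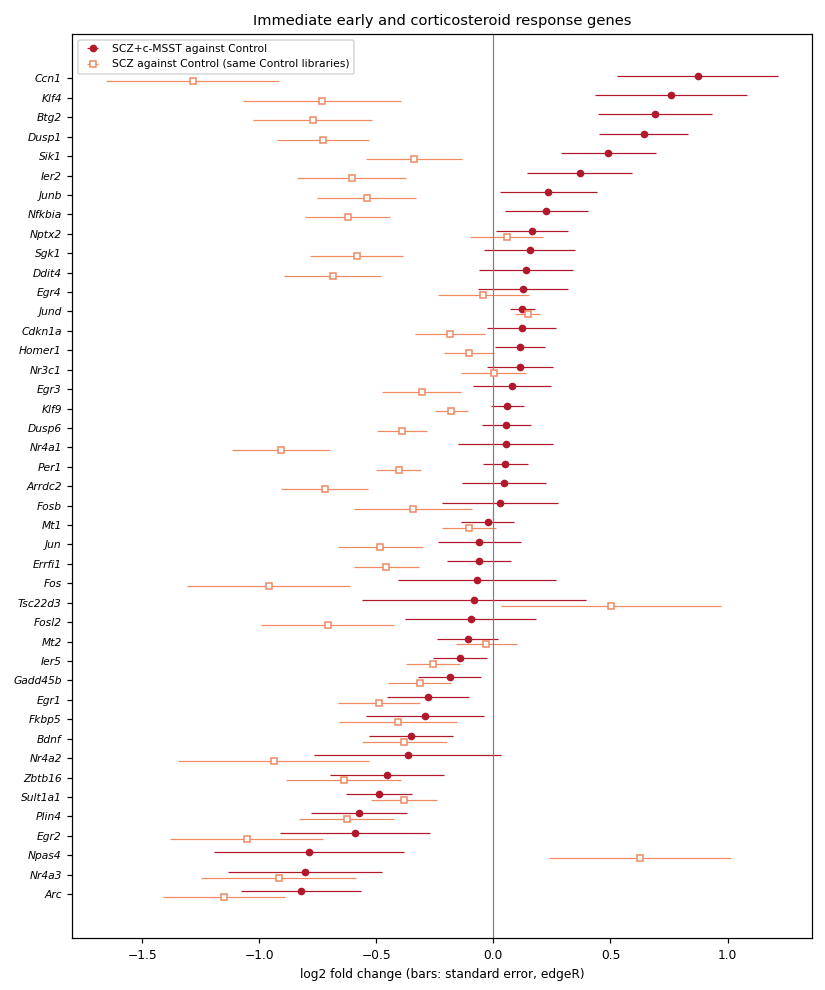
Log2 fold change (horizontal axis; bars are the edgeR standard error) of each immediate early and corticosteroid response gene in SCZ+c-MSST against Control (filled circles) and in SCZ against Control (open squares), which share the Control libraries. Circles lie on both sides of 0, from -0.82 (Arc) to 0.87 (Ccn1), and most squares lie below 0.

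The GABA-A receptor subunit in the series title is epsilon, whose gene Gabre lies at chrX:72255999-72274803 (minus strand, mm10). It was near the limit of detection in both groups, at 0, 5, 0 and 4 counts in SCZ+c-MSST and 0, 22, 8, 8, 12 and 8 counts in Control. In CPM this was 0.0308 ± 0.0361 (SD, n = 4) in SCZ+c-MSST and 0.150 ± 0.107 (SD, n = 6) in Control, and the groups overlapped. The log2 fold change was -2.20 (SE 1.21, edgeR adjusted p = 0.553), and an exact permutation test of CPM, two-sided over 210 arrangements, gave p = 0.0667 where the smallest possible was 0.00952. The fitted fold change of a gene with libraries at 0 depends on the prior count and is no bound. Among the subunits set beside it, Gabrq (theta) stood at 1.31, 1.22, 2.33 and 1.79 CPM in SCZ+c-MSST. This was inside the Control range, with 0.554, 2.52 and 3.72 CPM in Control (-0.46, SE 0.47). Gabra3 (alpha 3) divided into a high and a low set of libraries in both groups, at 179, 60.9, 68.3 and 192 CPM in SCZ+c-MSST and from 62.0 to 208 CPM in Control. Gabrg1 (gamma 1) stood at 23.4 ± 4.58 CPM in SCZ+c-MSST and 20.2 ± 4.42 CPM in Control (0.21, SE 0.15).

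Over the whole list of GABA-A subunits, those above included, the median was close to Control. Of 16 tested of 19, 10 were higher and 6 lower in mean, with a median log2 fold change of 0.06. At an unadjusted p under 0.05 there was 1 in each direction, where 4.37% of all genes were higher and 5.71% lower. Gabra5, the alpha 5 subunit of extrasynaptic receptors, averaged 57.8 ± 7.68 CPM in SCZ+c-MSST and 83.4 ± 32.0 CPM in Control (-0.53, SE 0.21, edgeR adjusted p = 0.430). Its value was 0.069 when scores of the striatal, septal and choroid plexus markers were covariates, and Control replicates 2 and 3, which were high in Ttr, held its highest levels, 132 and 114 CPM. Gabrg3 stood at 97.4, 99.5, 99.6 and 96.2 CPM in SCZ+c-MSST, against 47.5, 74.7 and 102 CPM in Control (0.41, SE 0.16). Its log2 fold change ran from 0.08 to 0.52 over all alternatives, and from 0.31 to 0.52 with each library left out in turn. Gabrb2, a subunit of the main synaptic receptors, averaged 354 ± 22.3 CPM in SCZ+c-MSST and 338 ± 22.5 CPM in Control. Of 13 genes of GABA synthesis, transport and GABA-B receptors, 9 were higher in mean (median 0.06) and 2 at an unadjusted p under 0.05, against 4.37% of all genes. The median was -0.027 with the striatal score as a covariate. The 2 genes were Nlgn2, an adhesion protein of inhibitory synapses (377 ± 8.09 CPM in SCZ+c-MSST and 349 ± 20.2 CPM in Control; 0.11, SE 0.05), and Slc32a1, the vesicular GABA transporter (79.5 ± 9.36 CPM in SCZ+c-MSST and 60.8 ± 16.5 CPM in Control; 0.39, SE 0.17, and 0.11 with the striatal score as a covariate). The GABA-B receptor genes Gabbr1 and Gabbr2 averaged 983 ± 19.3 and 565 ± 43.9 CPM in SCZ+c-MSST, against 943 ± 57.6 and 577 ± 96.9 CPM in Control.

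Glutamate receptors, among them the target of MK-801, were near Control levels. None of 7 NMDA receptor subunits had an unadjusted p under 0.05, and the median log2 fold change was 0.01. Grin1, the obligatory subunit, averaged 616 ± 29.5 CPM in SCZ+c-MSST and 608 ± 71.8 CPM in Control, and Grin2b 486 ± 17.1 CPM in SCZ+c-MSST and 477 ± 43.9 CPM in Control. Grin2a, which gives mature receptors their fast kinetics, averaged 746 ± 60.4 CPM in SCZ+c-MSST and 867 ± 190 CPM in Control (-0.22, SE 0.13, edgeR adjusted p = 0.583). Of 9 AMPA and kainate receptor subunits, 6 were higher in mean (median 0.02). Gria2, which makes AMPA receptors impermeable to calcium, averaged 825 ± 9.30 CPM in SCZ+c-MSST and 823 ± 48.8 CPM in Control, and the kainate receptor Grik1 27.3 ± 1.92 CPM in SCZ+c-MSST and 33.0 ± 5.85 CPM in Control (-0.27, SE 0.11). Of 7 metabotropic receptors tested, 6 were higher in mean (median 0.08), with Grm4, a presynaptic receptor, at 54.7 ± 5.16 CPM in SCZ+c-MSST and 38.7 ± 11.2 CPM in Control (0.50, SE 0.20). The log2 fold change of Grm4 ran from 0.12 to 0.63 over all alternatives, and from 0.43 to 0.63 with each library left out in turn.

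Dopamine and serotonin receptors had members on both sides of Control. Of 17 tested, 10 were higher and 7 lower in mean (median 0.21), and 2 were lower at an unadjusted p under 0.05 (5.71% of all genes). Drd1 and Drd2, which are dense in striatal medium spiny neurons, averaged 24.2 ± 6.93 and 65.6 ± 25.5 CPM in SCZ+c-MSST, against 13.7 ± 11.2 and 30.6 ± 29.7 CPM in Control. Their log2 fold changes were 0.82 (SE 0.55) and 1.10 (SE 0.89). That of Drd2 was -0.10 with the striatal score as a covariate and -0.076 with all 3 scores. Drd2 is itself a striatal marker, so this adjustment takes out its difference in part by construction and is no separate check. Htr7, a serotonin receptor coupled to cAMP, had 7.44, 8.04, 8.66 and 7.05 CPM in SCZ+c-MSST, against 8.45, 10.96 and 14.3 CPM in Control. Only 1 SCZ+c-MSST library reached into the Control range (-0.53, SE 0.16, edgeR adjusted p = 0.348). Htr2a, a serotonin receptor of deep-layer pyramidal cells, averaged 57.2 ± 4.05 CPM in SCZ+c-MSST and 39.4 ± 19.01 CPM in Control, and Htr2c 59.3 ± 17.1 CPM in SCZ+c-MSST and 43.2 ± 17.0 CPM in Control.

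Synaptic genes were close to Control, mostly slightly higher in mean. Of 20 presynaptic genes 14 were higher in mean (median 0.03), and of 18 postsynaptic scaffold genes 12 (median 0.04). Without Control replicates 2 and 3 these medians were -0.019 and 0.012. With scores of the striatal, septal and choroid plexus markers as covariates they were -0.059 and -0.0047, so the direction was not stable. Snap25, a vesicle fusion protein, averaged 2232 ± 90.3 CPM in SCZ+c-MSST and 2209 ± 437 CPM in Control, and Bsn, of the active zone, 1565 ± 118 CPM in SCZ+c-MSST and 1475 ± 189 CPM in Control. Camk2a, the kinase of synaptic plasticity, averaged 4186 ± 245 CPM in SCZ+c-MSST and 4348 ± 653 CPM in Control. The synaptic vesicle protein Sv2b had a log2 fold change of 0.22 (SE 0.10) and the scaffold Dlgap2 one of 0.20 (SE 0.07). Calcium and sodium channel genes were higher in mean in 15 of 20 (median 0.06). The mean of their centred log2 CPM was 0.06 to 0.18 in SCZ+c-MSST and -0.24 to 0.05 in Control, so these ranges did not overlap, by a narrow gap. Control replicates 2 and 3 had the lowest scores, and the median was 0.025 without them and -0.0044 with the 3 marker scores as covariates. Scn1a, the sodium channel of fast-spiking interneurons, stood at 248, 294, 273 and 290 CPM in SCZ+c-MSST. The gene lay above all of Control (167, 198 and 239 CPM), as did 0.78% of all genes. Its log2 fold change was 0.45 (SE 0.21, edgeR adjusted p = 0.496), and the means of SCZ and Control+c-MSST were 195 and 198 CPM. Cacnb1, an accessory calcium channel subunit, averaged 194 ± 7.84 CPM in SCZ+c-MSST and 173 ± 14.4 CPM in Control (0.17, SE 0.05).

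Of 24 potassium channel genes, 11 were higher and 13 lower in mean (median -0.02). Kcnj4, an inward rectifier that steadies the resting potential, had the smallest p of them. It stood at 154, 143, 146 and 151 CPM in SCZ+c-MSST, against 85.3, 110 and 137 CPM in Control (0.42, SE 0.11, edgeR adjusted p = 0.228). Its groups did not overlap, where 0.78% of all genes lay wholly above Control. Its means in SCZ and Control+c-MSST were 141 and 142 CPM, so Control was the low group of the 4. Among 8 neuregulin and ErbB genes, 5 were higher in mean (median 0.08). Nrg1, a growth factor for synapses and myelin and a much studied schizophrenia candidate, stood at 36.8, 44.5, 33.0 and 43.9 CPM in SCZ+c-MSST, against 12.4, 24.2 and 27.3 CPM in Control. The groups did not overlap here either (0.78% of all genes lay wholly above Control), and the log2 fold change was 0.82 (SE 0.24, edgeR adjusted p = 0.336). The SCZ and Control+c-MSST means, 35.7 and 30.2 CPM, lay between. Its receptor gene Erbb4 averaged 202 ± 3.31 CPM in SCZ+c-MSST and 194 ± 12.4 CPM in Control. Of 16 neuropeptide genes 12 were higher in mean (median 0.06), among them the striatal peptides Penk (267 ± 87.6 CPM in SCZ+c-MSST and 134 ± 120 CPM in Control) and Pdyn (0.73, SE 0.33); both are strong in striatal neurons, whose markers are given below. Pomc, the precursor of melanocortins and endorphin, was scarce, at 0.641, 0.580, 0.657 and 0.690 CPM in SCZ+c-MSST, against 0.785, 0.924 and 1.48 CPM in Control (-0.69, SE 0.25). Of 10 genes with rare variants in schizophrenia 5 were higher and 5 lower in mean (median 0.01), and none had an unadjusted p under 0.05.

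Markers of cortical neurons had medians near 0, and among neighbouring regions the striatal and choroid plexus lists had the widest medians. Upper-layer markers had a median log2 fold change of -0.01 (5 of 12 higher in mean), deep-layer markers 0.12 (8 of 15), pan-glutamatergic markers -0.08 (2 of 8) and interneuron markers 0.01 (10 of 15). Pvalb and Sst, which mark the main interneuron classes, averaged 28.8 ± 5.23 and 98.2 ± 2.57 CPM in SCZ+c-MSST, against 35.6 ± 10.8 and 93.3 ± 10.1 CPM in Control. All 14 striatal markers were higher in mean, with a median of 0.93. The groups overlapped in each, and only Pdyn had an unadjusted p under 0.05, where 4.37% of all genes were higher at that level. The centred score of the list ran from 0.29 to 1.31 in SCZ+c-MSST and from -2.55 to 1.05 in Control, and the median was 0.45 without Control replicates 2 and 3. Septal and medial forebrain markers were higher in mean in 4 of 8 and lower in 4, with a median of -0.25 and values of up to 0.82. Of the lower ones 3 had an unadjusted p under 0.05 (5.71% of all genes). The centred score of the septal list had the other sign, with a median of 0.21 in SCZ+c-MSST and -0.45 in Control. Zic1, a transcription factor of the septum, stood at 13.3, 10.9, 16.9 and 12.1 CPM in SCZ+c-MSST, and in Control at 10.1 to 11.7 CPM in replicates 1, 3 and 7 and 34.5 to 37.3 CPM in replicates 2, 4 and 5. Its relative Zic2 averaged 7.79 ± 0.309 CPM in SCZ+c-MSST and 12.2 ± 3.80 CPM in Control (-0.64, SE 0.24). Trpc4, a channel of the lateral septum, averaged 33.0 ± 4.60 CPM in SCZ+c-MSST and 52.7 ± 22.7 CPM in Control (-0.68, SE 0.24). With all 3 scores as covariates Trpc4 had 0.064, but the septal score includes Trpc4 itself, so this value is no separate check. All 13 choroid plexus and ependymal markers were lower in mean, 10 of them at an unadjusted p under 0.05 (5.71% of all genes), with a median of -1.56. The size of this median depended in part on Control replicates 2 and 3: it was -0.61 without both and -0.47 without replicate 2 alone. The centred score of the list ran from -1.14 to -0.23 in SCZ+c-MSST and from -0.92 to 3.26 in Control. In Control+c-MSST against the same Control libraries all 13 were lower in mean as well, with a median of -2.07. Olfactory and claustrum markers had a median of -0.13 (3 of 8 higher in mean), with none at an unadjusted p under 0.05. Folr1, the folate receptor of the choroid plexus, stood at 0.0746, 0.497, 0.120 and 0 CPM in SCZ+c-MSST, against 0.103, 0.582 and 11.5 CPM in Control.

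**Figure D4:**
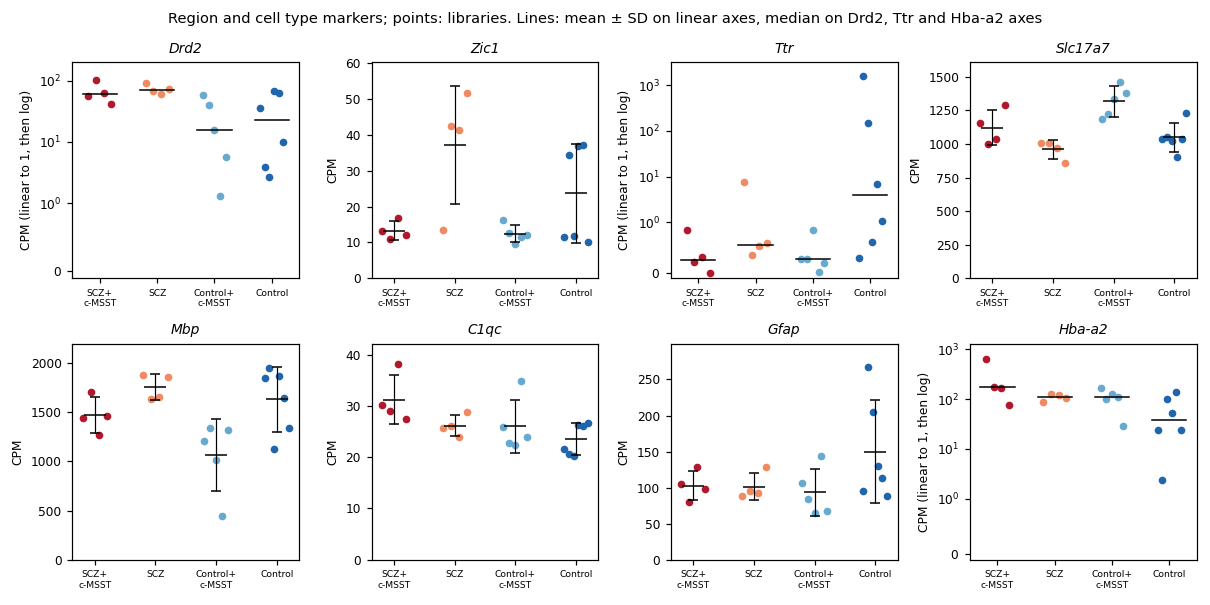
Level in CPM of 8 region and cell type markers in the 4 groups; points are libraries, with mean ± SD on linear axes and the median on the axes of Drd2, Ttr and Hba-a2, which are linear to 1 and logarithmic above. Slc17a7 is high in every library, Drd2 spans 2.69 to 68.5 CPM within Control, and Ttr reaches 1607 and 150 CPM in 2 Control libraries.

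Microglial genes were slightly higher in mean in SCZ+c-MSST. Of 14 markers 13 were higher, 5 of them at an unadjusted p under 0.05 against 4.37% of all genes, with a median log2 fold change of 0.18. The median was 0.083 without Control replicates 2 and 3, and -0.017 with the 3 marker scores as covariates, which turns its direction. C1qc, a chain of complement C1q, stood at 30.2, 29.1, 38.1 and 27.4 CPM in SCZ+c-MSST, against 20.2, 23.9 and 26.7 CPM in Control. These groups did not overlap, where 0.78% of all genes lay wholly above Control (0.40, SE 0.12, edgeR adjusted p = 0.355). Csf1r, the survival receptor of microglia, averaged 125 ± 8.56 CPM in SCZ+c-MSST and 111 ± 9.21 CPM in Control (0.17, SE 0.06). The fractalkine receptor Cx3cr1 averaged 52.1 ± 3.35 CPM in SCZ+c-MSST and 46.1 ± 4.50 CPM in Control (0.18, SE 0.08). The exception was P2ry12, a receptor of resting microglia. It stood at 12.9, 12.5, 12.8 and 9.52 CPM in SCZ+c-MSST, and in Control at 50.2 and 40.2 CPM in replicates 1 and 5 and 11.01 CPM or less in the others.

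Astrocyte genes were lower in mean in 10 of 12 (median -0.08). Gjb6, the gap junction protein connexin 30, had the smallest p of the genes in these lists. It stood at 30.7, 28.7, 26.3 and 26.3 CPM in SCZ+c-MSST, against 33.5, 35.8 and 45.8 CPM in Control. The groups did not overlap, where 0.877% of all genes lay wholly below Control, and the log2 fold change was -0.42 (SE 0.09, edgeR adjusted p = 0.193). Its means were 30.2 CPM in SCZ and 32.6 CPM in Control+c-MSST. The glutamate transporter Slc1a2 averaged 4288 ± 250 CPM in SCZ+c-MSST and 4923 ± 910 CPM in Control, and Glul, which makes glutamine, 1767 ± 102 CPM in SCZ+c-MSST and 1865 ± 143 CPM in Control. Reactive astrocyte genes were lower in mean in 12 of 14 (median -0.28, and -0.08 without Control replicates 2 and 3). Gfap, the intermediate filament of reactive astrocytes, stood at 104, 79.6, 128 and 98.7 CPM in SCZ+c-MSST, with 267 and 205 CPM in Control replicates 2 and 3 and 88.9 to 131 CPM in the other Control libraries. Its log2 fold change of -0.55 (SE 0.30) ran from -0.67 to -0.30 with each library left out in turn, and kept its sign in 23 of 25 alternatives. It was 0.15 with all 3 scores as covariates. It was 0.048 without SCZ+c-MSST replicate 3 and those 2 Control libraries, a setting chosen after seeing the data. Serpina3n, a protease inhibitor of the same state, had a log2 fold change of -0.61 (SE 0.27; 0.13 with all 3 scores as covariates). Timp1, an inhibitor of matrix proteases, was below all of Control, as were 0.877% of all genes. It stood at 2.181 ± 0.230 CPM in SCZ+c-MSST and 2.92 ± 0.251 CPM in Control (-0.42, SE 0.17).

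Myelin genes were lower in mean in 15 of 18 with a median of -0.12, and none had an unadjusted p under 0.05. Mbp, a main myelin protein, averaged 1468 ± 183 CPM in SCZ+c-MSST and 1628 ± 330 CPM in Control. Bcas1, which marks oligodendrocytes that are starting to myelinate, stood at 57.0, 70.3, 51.4 and 60.6 CPM in SCZ+c-MSST, against 79.1, 116 and 174 CPM in Control. The groups did not overlap, where 0.877% of all genes lay wholly below Control (-1.03, SE 0.41, edgeR adjusted p = 0.441). Gpr17, a receptor of the same stage, averaged 54.1 ± 3.73 CPM in SCZ+c-MSST and 71.3 ± 12.2 CPM in Control (-0.40, SE 0.14), while over all 12 precursor markers the median was -0.05. The mean of Bcas1 was 62.2 CPM in Control+c-MSST and 121 CPM in SCZ, and that of Gpr17 was 66.8 and 70.5 CPM in those groups.

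Vessel genes were mixed and blood genes varied widely between libraries. Of 14 endothelial markers 9 were higher in mean (median 0.01). Esam and Cldn5, junction proteins of brain endothelium, averaged 15.2 ± 1.84 and 18.0 ± 1.99 CPM in SCZ+c-MSST, against 12.2 ± 0.919 and 14.4 ± 3.24 CPM in Control (0.32, SE 0.09, and 0.32, SE 0.13). Ly6c1, another endothelial surface protein, averaged 14.95 ± 1.19 CPM in SCZ+c-MSST and 19.8 ± 4.58 CPM in Control (-0.40, SE 0.13). Notch3, a receptor of mural cells, had a log2 fold change of 0.24 (SE 0.08), in a pericyte and smooth muscle list with a median of -0.04. Fibroblast and meningeal markers were lower in mean in 13 of 14 (median -0.26, and -0.02 without Control replicates 2 and 3). Of these, Igfbp2, a binding protein for insulin-like growth factors, lay below all of Control, as did 0.877% of all genes. It averaged 18.2 ± 3.13 CPM in SCZ+c-MSST and 24.7 ± 6.58 CPM in Control. All 5 genes of the haemoglobin list were higher in mean, with a median of 2.24. Hba-a2, an alpha-globin gene, stood at 647, 177, 169 and 74.8 CPM in SCZ+c-MSST, against 2.42, 38.3 and 136 CPM in Control (2.24, SE 0.77, edgeR adjusted p = 0.388). The list's median was 0.62 without SCZ+c-MSST replicate 2. The centred score of the list was 2.06, 0.36, -1.39 and 2.13 in SCZ+c-MSST replicates 2 to 5, and ran from -0.58 to 1.33 in Control. Hba-a1, the twin of Hba-a2, was at 0 or 0.0298 CPM in 3 SCZ+c-MSST libraries and 185 CPM in replicate 5. Such near-identical copies can have their reads split in counting and are uncertain.

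Immune signalling showed no common direction. Interferon response genes were lower in mean in 17 of 20 (median -0.23), 1 of them at an unadjusted p under 0.05 (5.71% of all genes). With each library left out in turn this median ran from -0.56 to 0.08. Of 14 antigen presentation genes 6 were higher in mean, 2 of them at an unadjusted p under 0.05 (4.37% of all genes), and these 2 were of class II. H2-Ab1 stood at 2.61, 0.994, 3.29 and 3.78 CPM in SCZ+c-MSST, against 0.757, 1.45 and 2.09 CPM in Control (0.88, SE 0.33). Cd74, the invariant chain, averaged 7.73 ± 1.78 CPM in SCZ+c-MSST and 5.19 ± 1.58 CPM in Control (0.57, SE 0.23), and 7.74 CPM in SCZ. Of 11 cytokine and chemokine genes tested of 16, 8 were higher in mean (median 0.06). At an unadjusted p under 0.05, 2 were higher and 1 lower (4.37% and 5.71% of all genes). The chemokine Cxcl10, which attracts T cells, was at 0.358, 0.0552, 3.12 and 0.758 CPM in SCZ+c-MSST, against 0, 0.134 and 0.663 CPM in Control. Its log2 fold change of 2.38 (SE 0.87) was 0.93 without SCZ+c-MSST replicate 4.

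Genes that respond to iron, oxidants, heat or mechanical force, the agents nearest to the treatment, were near Control levels. Of 14 iron genes 9 were lower in mean (median -0.03), with ferritin heavy chain Fth1 at 756 ± 64.5 CPM in SCZ+c-MSST and 798 ± 96.5 CPM in Control. Cp, a ferroxidase that helps export iron and is also an astrocyte gene, was the one whose groups did not overlap, beside 1.66% of all genes. It stood at 20.8, 20.8, 20.2 and 17.5 CPM in SCZ+c-MSST, against 21.5, 23.8 and 28.8 CPM in Control (-0.30, SE 0.11, edgeR adjusted p = 0.388). Of 15 Nrf2 and ferroptosis defence genes 14 were higher in mean, but the median was 0.06 and none had an unadjusted p under 0.05. Gpx4, which guards membranes against lipid peroxides, averaged 129 ± 3.05 CPM in SCZ+c-MSST and 124 ± 6.85 CPM in Control. Nqo1, a quinone reductase, averaged 2.82 ± 0.0675 CPM in SCZ+c-MSST and 2.23 ± 0.763 CPM in Control (0.33, SE 0.22). Heat shock genes had a median of -0.01, with Hspa8 at 1513 ± 48.2 CPM in SCZ+c-MSST and 1552 ± 61.1 CPM in Control. Mechanosensitive channels also had a median of -0.01. Piezo1 averaged 13.4 ± 1.23 CPM in SCZ+c-MSST and 13.6 ± 2.25 CPM in Control, Piezo2 2.32 ± 0.876 CPM in SCZ+c-MSST and 2.91 ± 1.31 CPM in Control, and Kcnk2, a stretch-gated potassium channel, 78.2 ± 8.13 CPM in SCZ+c-MSST and 60.0 ± 12.1 CPM in Control (0.38, SE 0.17).

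Housekeeping lists had medians near 0. Ribosomal protein genes were higher in mean in 49 of 75 (median 0.05), nuclear genes of oxidative phosphorylation in 26 of 28 (median 0.04) and proteasome subunits in 15 of 25 (median 0.02). Rps2 had a log2 fold change of 0.13 (SE 0.04) and Uqcrc2, of complex III, one of 0.11 (SE 0.04). Atp5b, of the ATP synthase, averaged 741 ± 24.0 CPM in SCZ+c-MSST and 720 ± 46.7 CPM in Control. The COP9 signalosome subunits, which regulate ubiquitin ligases, had a median of -0.00 (Gps1 0.09, SE 0.04). Of 16 clock genes 11 were higher in mean (median 0.04). Per2, a repressor of the clock, was the one at an unadjusted p under 0.05 in the lower direction, at 44.3, 41.7, 49.6 and 53.4 CPM in SCZ+c-MSST, against 50.0, 61.4 and 84.1 CPM in Control (-0.42, SE 0.14, edgeR adjusted p = 0.369). The time of day of tissue collection is not given in the labels. Apoptosis regulators had a median of 0.01 (Trp53 -0.18, SE 0.07) and proliferation genes one of -0.04 (Tyms -0.51, SE 0.20). The plot of all lists shows that the haemoglobin, striatal and choroid plexus lists held the widest medians, with the libraries left out as given above.

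**Figure D5:**
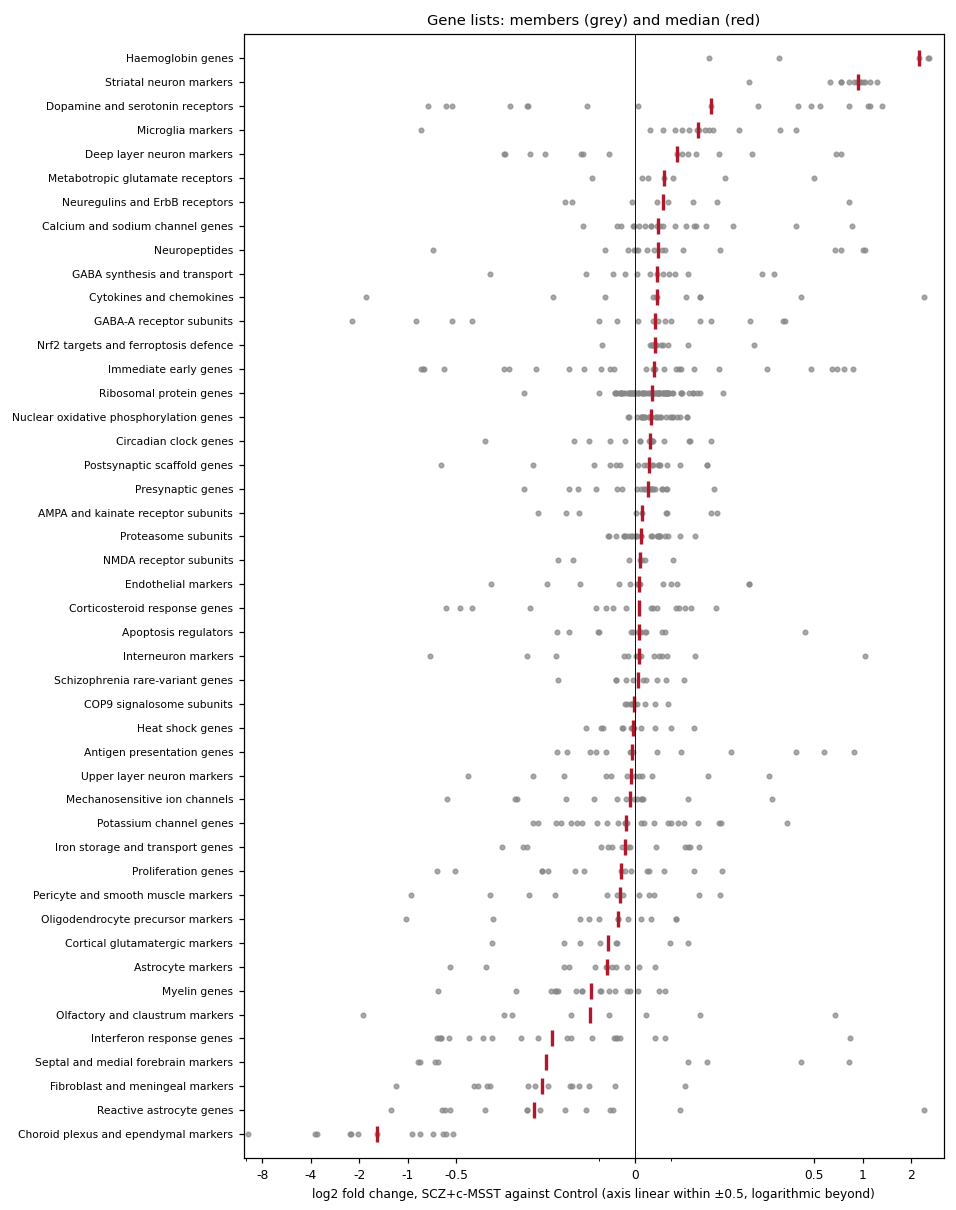
Log2 fold change in SCZ+c-MSST against Control (horizontal axis, linear within ±0.5 and logarithmic beyond) of each tested member (grey points) of the gene lists, with the list's median as a red bar, ordered by median. Most medians lie between -0.3 and 0.3, and the haemoglobin (2.24), striatal (0.93) and choroid plexus (-1.56) lists lie outside.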

How the data were processed

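Estimated counts per gene and FPKM (depth- and length-scaled fragments) were deposited by the authors for 19 libraries of stranded total RNA. The submitters' processing notes name StringTie 1.3.5, STAR 2.7.7a, fastp 0.19.5 and Picard 2.18.29, and the build mm10. The annotation and the strand setting of the counting are not given in the sources used here, so overlapping antisense genes and near-identical copies are uncertain. The FPKM values deposited by the authors served for alternatives only, and 11 gene names that had turned into dates there were restored by matching the tables.

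The deposited counts of 20938 genes, 2327 of them with no count in any library, were fitted with edgeR 4.0.16 in R 4.3.3 (default low-count filter, TMM normalization, quasi-likelihood test, Benjamini-Hochberg adjustment over 16417 genes). All 4 groups shared 1 estimate of the spread and the model had no covariates. The fit was tested on simulated data first. Levels are TMM-normalized CPM. List scores are means of centred log2 CPM with a prior count of 2. Alternatives used DESeq2 1.42.0, limma 3.58.1, sva 3.50.0, other filters and normalizations, scores as covariates, and libraries left out.

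Genes were named by rule. These were the 8 with the smallest p in each direction among genes averaging 1 CPM or more, without predicted or clone names. Gabre, Gabrq, Gabra3 and Gabrg1 were added, and for each of 46 lists the 2 most abundant members and the one with the smallest p. Some of these are given only in their list's counts, and a few genes are not reported here. Other named genes, such as Scn1a, Bcas1, Plin4 and Timp1, were chosen after their values were seen. The members and the lists were chosen with earlier results of these data known. No column of the tables was left unused (0).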

Additional observations from a re-analysis of the deposited data

Results flagged for a closer look

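Of 364 pairs of a gene and a group examined, 24 held a library whose gap to its nearest neighbour was large against the whole range of the group (Dixon's test at 95%), 9 in SCZ+c-MSST and 15 in Control. Chance alone flags about 1 in 20 groups.

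In SCZ+c-MSST, replicate 3 was highest for Reln (286 CPM) and the proteasome gene Psmd2 (187 CPM) and lowest for the choroid plexus and kidney hormone gene Kl (3.02 CPM). Replicate 4 was highest for complement C4b (40.0194 CPM) and lowest for Timp1 (1.84 CPM) and the channel gene Tmem63c (103.82 CPM). Replicate 5 was highest for Hba-a1 (185 CPM, with at most 0.0298 CPM in the other SCZ+c-MSST libraries) and the deep-layer factor Tbr1 (242 CPM), and lowest for P2ry12 (9.52 CPM).

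In Control, replicate 2 was highest for 7 genes: Ttr (1607 CPM), Enpp2 (822 CPM), Kl (88.0 CPM), Folr1 (11.5 CPM), Igfbp2 (38.0 CPM), Per2 (84.1 CPM) and Tyms (5.66 CPM). Ttr, Enpp2, Kl and Folr1 are choroid plexus genes. Replicate 3 was highest for Esam (13.95 CPM), Piezo2 (5.37 CPM) and the pericyte gene Vtn (56.0 CPM), replicate 5 for Gps1 (83.6 CPM) and replicate 1 for Cldn5 (21.0 CPM). Replicate 7 was highest for Npas4 (26.4 CPM) and Pvalb (56.9 CPM) and lowest for the glutamate receptor Grm5 (283.511 CPM).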

How the results depend on the processing

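The count of 0 genes called in SCZ+c-MSST against Control was 91 with DESeq2, 5 with 1 surrogate variable and 1 when the scores of striatal, septal and choroid plexus markers were covariates. With each library left out in turn it ran from 0 to 1, and it was 0 under the other alternatives. DESeq2 called all 16 genes of the first panels. At an unadjusted p under 0.05 the count of 1655 ran from 1137 to 2186 over all alternatives.
Gene values that changed sign did so mainly with all 3 scores as covariates: Gabra5 0.069, Foxp2 -0.012, Neurod6 0.057, Trpc4 0.064, Enpp2 0.18, Drd2 -0.076, Gfap 0.15, Serpina3n 0.13 and Ppp1r1b -0.065. Drd2 was -0.10 with the striatal score alone, and Gfap 0.048 without SCZ+c-MSST replicate 3 and Control replicates 2 and 3, a setting chosen after seeing the data. For these reversals the cause was not tested. Each score includes the markers of its own list, such as Drd2, Ppp1r1b and Trpc4, so the values of such genes shrink in part by construction. Among list medians, choroid plexus was -0.26 and -0.59 on FPKM with pseudocounts of 1 and 0.1, and -0.24 with the 3 scores. With those scores reactive astrocyte genes were 0.071, microglia -0.017 and striatal markers -0.071. The striatal and choroid plexus medians under these scores are no separate check, because the scores are made from the same markers. Haemoglobin was 0.62 without SCZ+c-MSST replicate 2, and septal markers were -0.66 among genes averaging 1 CPM or more and 0.0073 with voom.
With the replicate number as a block, 0 genes were called and 1628 had an unadjusted p under 0.05. Same-numbered SCZ+c-MSST and Control libraries deviated from their group means with correlations of 0.0205, -0.0951, 0.0754 and -0.235 for replicates 2 to 5. Only replicate 4 correlated best with its own number. All differences between libraries enter these correlations, so they cannot decide whether same-numbered libraries shared a day or batch. Genes near 0, such as Gabre, are limited by counts of at most 22.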

Other observations

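Replication-dependent histone genes, whose messages mostly lack a poly(A) tail, were mostly higher in mean in SCZ+c-MSST. This family was picked after its values were seen. Of 52 tested, 43 were higher than in Control, and 16 of them had an unadjusted p under 0.05 (30.8%, against 4.37% of all genes), while 1 was lower at that level. The median log2 fold change was 0.22. All 14 histone H2A genes were higher in mean (median 0.52), with 8 at an unadjusted p under 0.05, and 10 of 11 H3 genes (median 0.42), with 6. H2B genes were higher in 10 of 15 and H4 genes in 9 of 12, with 1 each at that level in the higher direction and 1 H2B gene in the lower, so most of the 16 were H2A or H3 genes. H3c6 had a log2 fold change of 0.77 (SE 0.18, edgeR adjusted p = 0.193) and H3c4 one of 0.61 (SE 0.14, edgeR adjusted p = 0.203). Against the same Control libraries the family's median was 0.34 in SCZ and 0.14 in Control+c-MSST. Copies of these genes are nearly identical, so the count of any single one is uncertain.

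Zinc finger genes named Zfp, Zkscan or Zscan were lower in mean in 268 of 398, with a median log2 fold change of -0.06, and 60 of them had an unadjusted p under 0.05 in that direction (15.1%, against 5.71% of all genes). This family too was picked after its values were seen. Their median GC content was 44.8%, against 49.9% over all genes. In the fifth of genes with the highest GC content 57.1% were higher in mean in SCZ+c-MSST, beside 46.9% in the fifth with the lowest. The part of GC content in the family's values was not tested.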
